A study of Mus musculus with 4 samples.

Results

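Expression of 10 genes of the neuronal cytoskeleton and growth cone was followed through the differentiation of mouse embryonic stem (ES) cells. The genes were Dcx, Dclk1, Nefl, Nefm, Ina, Stmn2, Mapt, Map2, Gap43 and Tubb3, taken by name from the probe sets that carry a single gene symbol, and all 10 were measured, by 11 probe sets among the 35556 on the array. They stand among 19938 genes with such a probe set. RNA came from the D3 ES cell line in 4 states, with 1 Affymetrix array for each. Undifferentiated ES cells had no treatment, and day 7 embryoid bodies (EBs) had no ligand, retinoic acid (RA) or bexarotene. EBs are free-floating aggregates of differentiating ES cells, kept here in hanging drops for 2 days and for 5 days after that. Bexarotene, a synthetic agonist of the retinoid X receptor RXR, was used at 50 nM. For RA, which activates the retinoic acid receptor RAR, the dose was 5 µM according to the labels and at a nanomolar dose according to the article, so the ligands were not matched in dose.

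Newborn neurons build their shape from microtubules, neurofilaments and the membrane skeleton of the growth cone, the motile tip of the axon. Dcx and its kinase relative Dclk1 bind and stabilise microtubules in migrating neurons, Tubb3 encodes the beta-tubulin typical of neurons, and Map2 and Mapt (tau) encode the main microtubule-associated proteins of dendrites and axons. Nefl, Nefm and Ina encode subunits of the neuronal intermediate filament, Stmn2 encodes a membrane-anchored stathmin that acts on microtubule ends in the growth cone, and Gap43 encodes a palmitoylated growth cone protein linked to actin.

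The values are log2 signal per probe set, normalized by the authors over the 4 arrays, and the array medians lay between 6.66 and 6.69. With 1 array per condition no test could be made, and each difference given is that between 2 arrays on the log2 scale. Higher and lower below mean past 1.5-fold (0.58 on the log2 scale). For scale, the RA and bexarotene arrays, which resemble each other most, differed at like signal with a robust SD of 0.0886 to 0.129 for the 11 probe sets. This yardstick is no replicate error. Without regard to signal level, the robust SD was 0.115 for this pair, 0.172 for RA against untreated EBs and 0.167 for bexarotene against untreated EBs. Levels of single genes were compared only within a gene. For some marker lists the signals of different genes were also summed, and such sums lean on the genes of highest signal. In RNA of whole EBs, more neurons and more RNA of a gene in each neuron cannot be told apart.

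Before any ligand, the genes did not act as a block of neuronal genes. Dclk1 and Map2 were higher in untreated EBs than in ES cells, Ina, Stmn2 and Mapt were lower, and the remaining 5 were past the threshold in neither direction. Thus 2 of 10 were higher and 3 of 10 lower, where 11.2% of all genes were higher and 8.62% lower. The median difference of the 10 genes was -0.16, beside -0.04 for all genes.

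Ina showed the largest decline of the group. Its first probe set had a log2 signal of 10.42 in ES cells and 8.75 in untreated EBs, a difference of -1.66, and the other probe set had 10.12 and 8.53, a difference of -1.59. Ina thus had its lowest signal in untreated EBs and a high one in undifferentiated cells by both probe sets. Stmn2 had its highest signal of all 4 arrays in ES cells, 11.68, against 10.48 in untreated EBs, a difference of -1.20. Mapt also had its highest signal in ES cells, 6.96 against 6.28, a difference of -0.69. All 3 genes thus had a lower signal in untreated EBs than in the undifferentiated state.

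Dclk1 and Map2 showed the reverse order. Dclk1 had a log2 signal of 6.19 in ES cells and 7.50 in untreated EBs, a difference of 1.31, and Map2 had 7.56 and 8.65, a difference of 1.09. These genes were higher without any ligand. Among the genes past the threshold in neither direction, Dcx differed by 0.47, Gap43 by 0.42, Nefm by 0.06, Nefl by -0.37 and Tubb3 by -0.52. Dcx had a signal of 5.18 in ES cells, at the lower quartile of that array (5.19), where array signal cannot separate low expression from none.

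**Figure D1:**
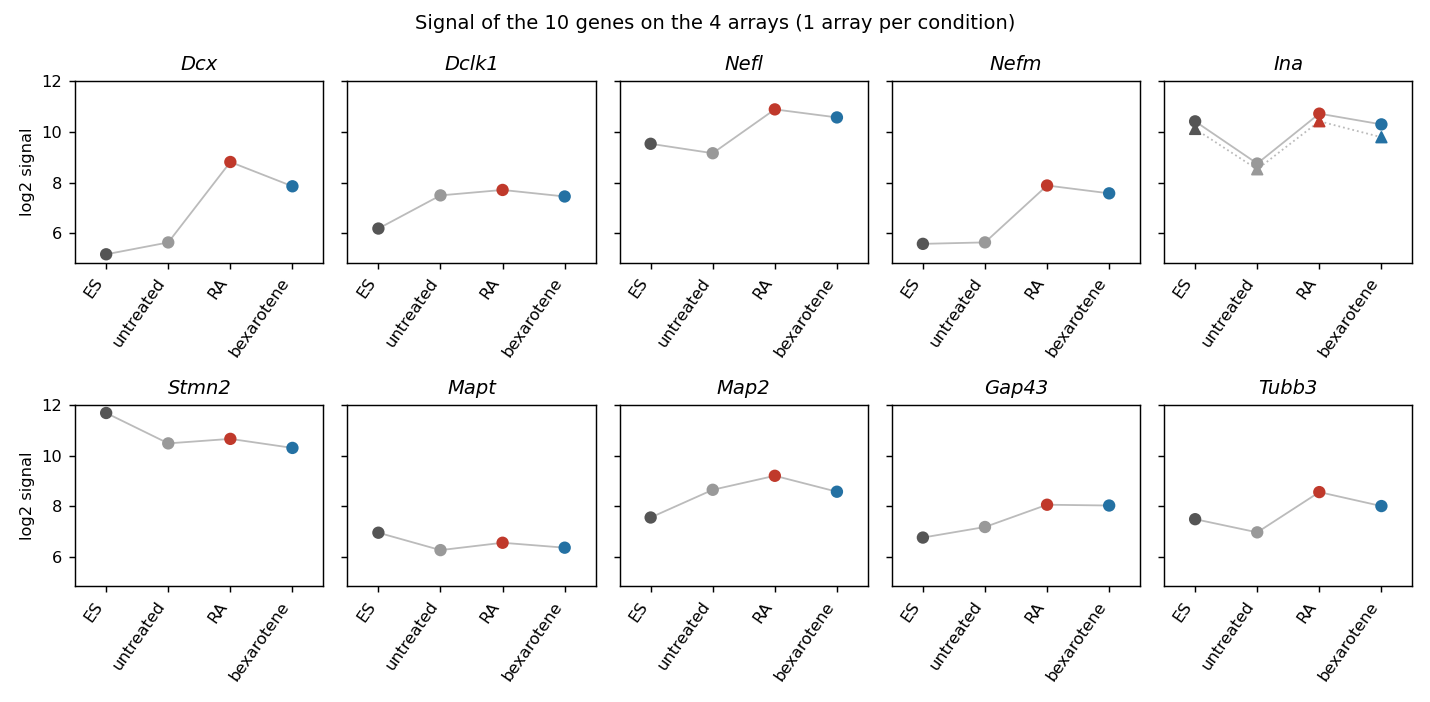
Log2 signal (y axis) of the 10 genes on the ES cell, untreated EB, RA EB and bexarotene EB arrays (x axis), 1 point per array and no replicates; triangles on the dotted line are the other probe set of Ina. Dcx stands at 5.65 in untreated EBs and 8.81 with RA, whereas Stmn2 is highest in ES cells (11.68) and Mapt stays between 6.28 and 6.96.

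RA separated the group into 6 genes that were higher than in untreated EBs and 4 that were not past the threshold. The higher genes were Dcx, Nefm, Ina, Nefl, Tubb3 and Gap43. None of the 10 was lower. Over all genes 2.11% were past 1.5-fold higher with RA and 2.29% lower. The median difference of the 10 genes was 1.23, against 0 for all genes, and all 10 had a positive sign, as had 49.8% of all genes.

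Dcx, the microtubule protein of migrating neurons, had the widest range. It had log2 signals of 5.18 in ES cells, 5.65 in EBs without ligand, 8.81 after RA and 7.86 after bexarotene. Both ligand arrays stood far above the arrays without ligand. The difference between RA and untreated EBs was 3.17, at rank 2 from the highest of 19938 genes, where the yardstick was 0.121.

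The 3 genes of this group that encode intermediate filament subunits, Nefl, Nefm and Ina, were higher with RA, although their signals without ligand stood differently to those in ES cells. Nefm, the medium neurofilament subunit, had log2 signals of 5.59 in ES cells, 5.65 in EBs without ligand, 7.89 after RA and 7.58 after bexarotene, so the arrays without ligand were nearly equal. Its difference with RA was 2.24, at rank 17. Nefl, the light subunit and the core of the filament, had 9.53, 9.16, 10.89 and 10.57 in the same order, and its difference with RA was 1.73, at rank 38. Ina, alpha-internexin, is the subunit that appears early in developing neurons. Its signal was 10.42 in ES cells, 8.75 in EBs without ligand, 10.72 after RA and 10.30 after bexarotene, so the ligand arrays lay close to ES cells and the untreated array stood apart. The difference with RA was 1.96 by this probe set, at rank 23, and 1.89 by the other.

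Tubb3 had log2 signals of 7.50 in ES cells, 6.98 in EBs without ligand, 8.56 after RA and 8.01 after bexarotene. As with Ina and Nefl, the untreated array was the lowest. The difference with RA was 1.59, at rank 48, where the yardstick was 0.121. Gap43 had 6.77, 7.19, 8.07 and 8.03, with the ligand arrays nearly equal and above both others. Its difference with RA was 0.88, the smallest of the 6, at rank 182.

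The genes not past the threshold with RA were Map2, Mapt, Dclk1 and Stmn2. Map2 came closest, with log2 signals of 7.56 in ES cells, 8.65 in EBs without ligand, 9.20 after RA and 8.58 after bexarotene. Its difference with RA was 0.55, a 1.47-fold difference just under the threshold, and it was past the threshold at 0.60 when the arrays were quantile normalized and at 0.60 after loess. Mapt had 6.57 with RA and 6.37 with bexarotene, Dclk1 had 7.71 and 7.46, and Stmn2 had 10.66 and 10.30. Their differences with RA were 0.29, 0.21 and 0.18. None of these genes was thus past the threshold.

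With bexarotene, 6 genes were higher than in untreated EBs and none was lower, where 1.52% of all genes were higher and 2.19% lower. These comparisons use the same untreated array as those with RA, so the values are given side by side and not as separate evidence. Dcx differed by 2.21, Nefm by 1.93, Ina by 1.54, Nefl by 1.41, Tubb3 by 1.04 and Gap43 by 0.85. They stood at ranks 12, 19, 40, 56, 96 and 141 from the highest of 19938 genes. Map2, Mapt, Dclk1 and Stmn2 differed by -0.076, 0.10, -0.043 and -0.18, none past the threshold. The median over the 10 genes was 0.94, against -0.01 for all genes.

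**Figure D2:**
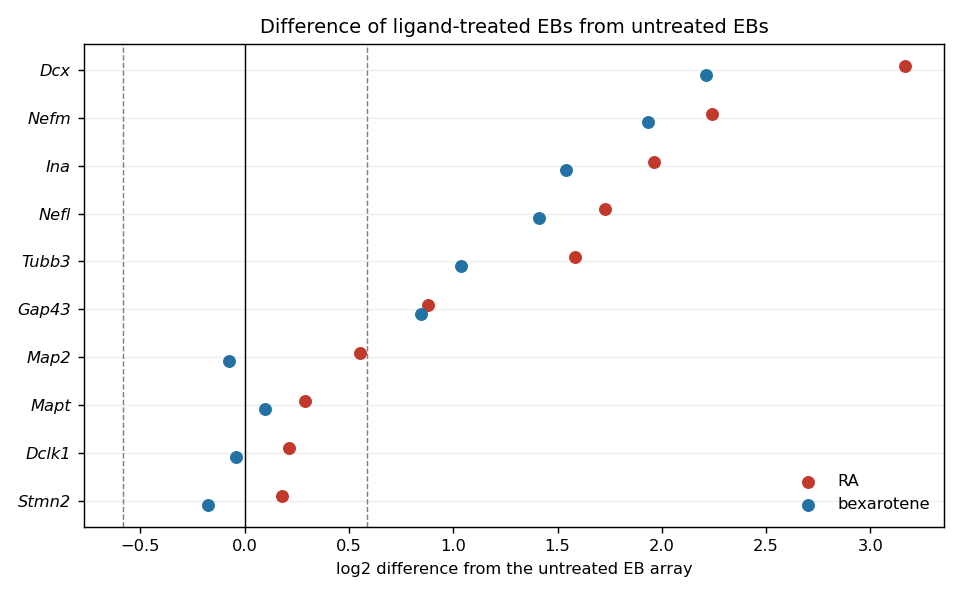
Log2 difference from the untreated EB array (x axis) of each gene (y axis) with RA (red) and bexarotene (blue), 1 value per ligand; dashed lines mark 1.5-fold. Dcx lies farthest to the right at 3.17 and 2.21, and Stmn2, Dclk1, Mapt and Map2 lie between the dashed lines with either ligand.

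Set directly against each other, the ligand arrays differed less. All 10 genes had a lower signal with bexarotene than with RA, as had 54.0% of all genes, and the median difference was -0.34, against -0.01 for all genes. Some other lists had the same sign throughout. All 20 other neuronal microtubule genes had a lower signal with bexarotene, at a median of -0.17. So had all 8 neural progenitor markers, at -0.096, and all 7 ES cell markers, at -0.31, of which Pou5f1 was past 1.5-fold. The 11 neuronal markers outside the cytoskeleton were not of 1 sign, from -0.52 to 0.02, but their median of -0.33 was close to that of the 10 genes. The part of these cell types in the values of the 10 genes was not tested. Of the 10, Dcx, Map2 and Ina were past 1.5-fold lower and none was higher, where 0.301% of all genes were lower and 0.206% higher. Dcx differed by -0.96, at rank 2 from the lowest of 19938 genes, and Map2 by -0.63, at rank 43. Ina was past the threshold by 1 of its 2 probe sets only, with differences of -0.63 and -0.42. Tubb3 differed by -0.55, Stmn2 by -0.36, Nefl by -0.32, Nefm by -0.31, Dclk1 by -0.26 and Mapt by -0.19. Gap43 had nearly the same signal with either ligand, at a difference of -0.03.

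Relative to ES cells, the ligand-treated EBs gained most of these genes but not all. With RA, Dcx, Nefm, Map2, Dclk1, Nefl, Gap43 and Tubb3 were higher and Stmn2 was lower, so 7 of 10 were higher and 1 lower, where 10.7% and 9.32% of all genes were. The differences of the higher genes ran from 1.07 for Tubb3 to 3.64 for Dcx, whose ES cell signal lies at the level where low expression and none cannot be separated. With bexarotene, 6 of 10 were higher and 2 lower, where 10.3% and 9.82% of all genes were. Tubb3, at 0.52, was not past the threshold, and Mapt, at -0.59, lay just past it. Stmn2 was lower than in ES cells on every EB array, by -1.02 with RA and -1.38 with bexarotene. Ina differed from ES cells by 0.30 with RA and -0.12 with bexarotene, past the threshold with neither.

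**Figure D3:**
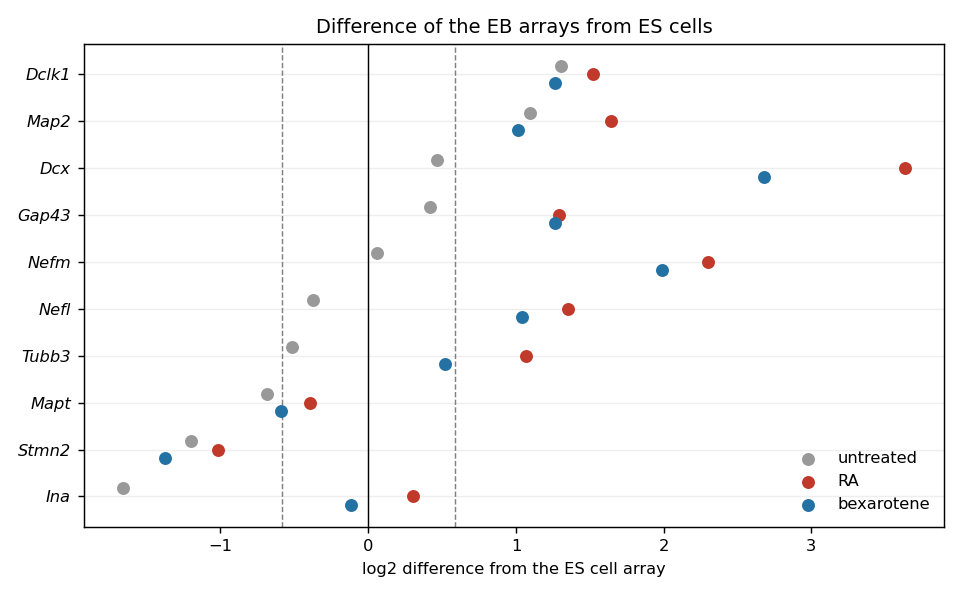
Log2 difference from the ES cell array (x axis) of each gene (y axis) in untreated (grey), RA-treated (red) and bexarotene-treated (blue) EBs, 1 value per array; dashed lines mark 1.5-fold. Stmn2 lies left of the lower line on all EB arrays (-1.20, -1.02 and -1.38), and Ina does so only in untreated EBs (-1.66).

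Of the 10 genes, 8 had their highest signal with RA and 2, Stmn2 and Mapt, in ES cells. The lowest signal fell on the ES cell array for Dcx, Dclk1, Nefm, Map2 and Gap43, on the untreated array for Nefl, Ina, Mapt and Tubb3, and on the bexarotene array for Stmn2. The most alike profiles over the 4 arrays were those of Dclk1 and Map2, whose centred signals were 0.153 apart in root mean square, followed by Nefl and Tubb3 at 0.192. The least alike were Dcx and Stmn2, at 1.87. Nefl and Nefm, which encode partners in 1 filament, were 0.396 apart.

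Sequence upstream of the gene start is shown for 2 genes that were higher with both ligands, Dcx and Tubb3, and for 2 that were not past the threshold with either, Dclk1 and Map2. RefSeq on GRCm38.p6 gave windows of 250 bases before a start for 5 of the 10 genes. Only bases outside annotated genes are shown, and the window of Ina, which overlaps Nt5c2, is not shown. Capitals mark the motifs found among CANNTG (the E-box of proneural factors), AGGTCA (the hexamer of nuclear receptors), 2 such hexamers in direct repeat 5 bases apart, and TTCAGCACC and GGACAG (the left and right parts of RE1, the element bound by the repressor Rest), on both strands. The Dcx stretch is chrX:143933397-143933469 on the minus strand. The others lie on the plus strand at chr8:123411303-123411552 for Tubb3, chr3:55242114-55242302 for Dclk1 and chr1:66175079-66175201 for Map2.
Dcx: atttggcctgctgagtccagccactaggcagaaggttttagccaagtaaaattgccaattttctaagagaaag
Tubb3: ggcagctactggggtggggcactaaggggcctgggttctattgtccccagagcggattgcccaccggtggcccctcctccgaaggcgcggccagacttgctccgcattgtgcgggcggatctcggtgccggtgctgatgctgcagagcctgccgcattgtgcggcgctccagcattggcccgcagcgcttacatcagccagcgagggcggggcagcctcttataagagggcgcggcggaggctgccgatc
Dclk1: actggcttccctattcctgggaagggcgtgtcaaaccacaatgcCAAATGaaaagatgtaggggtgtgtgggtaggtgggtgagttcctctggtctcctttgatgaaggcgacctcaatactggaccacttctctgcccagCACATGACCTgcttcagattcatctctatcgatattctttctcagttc
Map2: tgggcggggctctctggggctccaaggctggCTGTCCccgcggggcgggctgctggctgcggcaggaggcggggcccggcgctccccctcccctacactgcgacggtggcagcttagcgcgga

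The windows of Dcx and Tubb3 held none of these motifs. That of Dclk1 shown here held 2 E-boxes and 1 AGGTCA hexamer, which overlaps an E-box, that of its other start held 1 E-box, and that of Map2 held 1 GGACAG. The window of Ina, which was higher with both ligands, held 1 E-box and 1 GGACAG. In 32851 promoter windows of the same length, 66.2% held an E-box, 14.0% the AGGTCA hexamer, 18.7% GGACAG, 0.301% TTCAGCACC and 0.00913% the direct repeat. A match is a description of letters and not a site. The windows also differed in composition, with 68.0% G and C for Tubb3, 81.2% for Map2, and 41.6% and 44.8% for the windows of the 2 Dcx starts, against a median of 52.4% over all windows.

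Other genes of the same structures were counted from lists chosen with earlier results of these data known. Of 20 other neuronal microtubule genes, 5 were higher with RA and 1 lower, at a median difference of 0.21. With bexarotene the counts were 3 and 1 and the median 0.02. Tubb2b, a beta-tubulin of neural progenitors and neurons, differed by 1.44 with RA and 1.27 with bexarotene, and Tubb2a by 0.82 and 0.69. These tubulins are close in sequence, and how far their probes tell them apart was not tested. The microtubule stabiliser Map6 differed by 0.99 and 0.73. The stathmin relatives of Stmn2, Stmn3 and Stmn4, differed by 0.73 and 0.73 with RA, and by 0.27 and 0.29, not past the threshold, with bexarotene. Tubb4a ran the other way, at -1.21 and -1.38. Map1a, Map1b, Map7d2 and Dclk2 were past the threshold with neither ligand.

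Of 25 other growth cone genes, 9 were higher with RA and 5 with bexarotene, none was lower with either, and the medians were 0.31 and 0.17. Gpm6b, which encodes a membrane glycoprotein of neurons and glia, differed by 2.77 and 2.17, and was the only gene of this list past 1.5-fold between the ligands, at -0.60. The reticulon Rtn1 differed by 1.58 and 1.28, Tagln3 by 1.56 and 1.34, the adhesion molecule L1cam by 0.72 and 0.61 and its relative Chl1 by 0.73 and 0.70. The signal of Chl1 in untreated EBs, 4.58, lay below the lower quartile of that array (5.19), where low expression and none cannot be separated. With RA and bexarotene it was 5.31 and 5.29, little above the lower quartiles of those arrays (5.20 and 5.22). Marcks, a close functional relative of Gap43, differed by 0.71 and 0.58, the latter just short of the threshold. Cntn2 differed by 1.03 and 0.53, Dpysl4 by 0.92 and 0.47 and Ncam1 by 0.74 and 0.40. These 4 were past the threshold with RA alone. Between bexarotene and RA they differed by -0.14, -0.50, -0.45 and -0.34, none past 1.5-fold, and no test was possible. Basp1, Marcksl1, Crmp1 and Dpysl2 were past the threshold with neither ligand.

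Of 12 other intermediate filament genes, Nes alone was higher with RA, at 1.26, and with bexarotene, at 1.17. Nes encodes nestin of neural progenitors. Des of muscle and the epithelial keratins Krt8 and Krt18 were lower with RA, at -0.73, -0.60 and -0.72. With bexarotene they differed by -0.34, -0.52 and -0.56, the keratins just short of the threshold, and none of the list was past it lower. Between the ligands none of the list was past 1.5-fold. Nefh, the heavy neurofilament subunit, did not move with its partners. Its signal was 9.61 in ES cells, 7.51 in EBs without ligand, 7.52 after RA and 7.55 after bexarotene, so all EB arrays were alike and well below ES cells. Prph, peripherin of peripheral neurons, differed by 0.22 and 0.34, and Vim by 0.50 and 0.35, none past the threshold.

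Of 16 measured genes of the general cytoskeleton, none was past 1.5-fold with either ligand or between them, and the medians were -0.02 with RA and -0.07 with bexarotene. Actb differed by -0.02 and -0.03, Tubb5 by -0.02 and -0.05, and Stmn1, the widely expressed stathmin, by 0.09 and -0.05. The same held for 6 measured paralogs with doublecortin domains, which ranged from -0.16 to 0.18 over both ligands. Of these paralogs, 2 lay below the lower quartile of every array, where low expression and none cannot be separated. Of 12 kinases and activators that act on microtubule proteins, Mapk10, a neuronal JNK, was higher with both ligands, at 1.01 and 0.94, and none was lower. Cdk5, Cdk5r1, Cdk5r2 and Gsk3a were past the threshold with neither. Of Rest and 8 measured corepressors, none was past it with either ligand, and Rest itself differed by -1.03 between untreated EBs and ES cells.

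**Figure D4:**
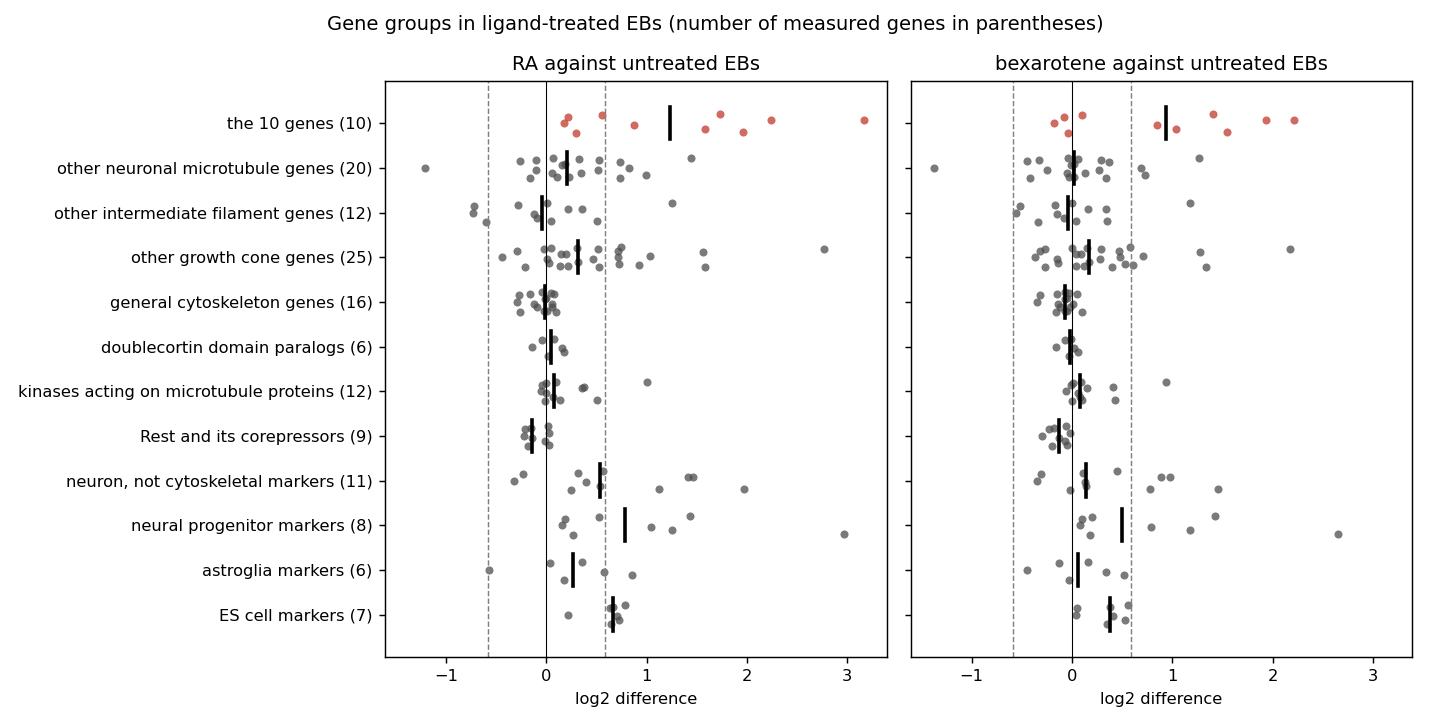
Log2 difference from the untreated EB array (x axis) with RA (left) and bexarotene (right) for the 10 genes (red), for the other gene groups and for marker lists (grey, y axis), 1 point per gene; bars mark medians and dashed lines 1.5-fold. The 10 genes have medians of 1.23 and 0.94, and the general cytoskeleton genes lie between -0.35 and 0.09.

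Markers of cell types gave the setting of these differences. Of 11 neuronal markers outside the cytoskeleton, the RNA-binding proteins Elavl3, Elavl4 and Celf3 and the synaptic Snap25 were higher with both ligands and none was lower. Over the list the differences ran from -0.33 to 1.97 with RA and from -0.35 to 1.45 with bexarotene. Elavl2 had a negative sign with both, at -0.24 and -0.35, not past the threshold. The log2 of the summed signal of this list was 10.8 in EBs without ligand, 11.4 after RA and 11.1 after bexarotene, with ES cells between the untreated and the bexarotene array. Rbfox3 of mature neurons differed by 0.32 and -0.02, past the threshold with neither. Of 8 markers of neural progenitors, Pax6, Nes, Fabp7 and Hes5 were higher with both ligands, and the log2 of the summed signal was 12.3 for ES cells, 12.8 without ligand, 13.7 after RA and 13.5 after bexarotene. The highest signal in this list was that of Sox2 in ES cells, 11.4, and that of Fabp7 with the ligands, 11.9 and 11.6. Sox1, Sox2 and Msi1 differed by 0.16, 0.19 and 0.26 with RA, not past the threshold. Of 6 astroglial markers, Slc1a3 was higher with RA, at 0.86, none was higher with bexarotene, and Gfap differed by 0.35 and 0.16. Aqp4 ran the other way, at -0.58 with RA, just short of the threshold, and -0.45 with bexarotene. Of 6 measured markers of neural crest and neuroendocrine cells, Ngfr was higher with both ligands, and none of 5 measured oligodendrocyte markers was past the threshold. Ngfr had its highest signal in ES cells, 9.43, against 7.84 without ligand, 8.57 after RA and 8.56 after bexarotene. Among markers of other tissues none was higher with either ligand. Des of 7 skeletal muscle markers was lower with RA, and Myl7 of 5 cardiomyocyte, Foxa2 of 6 endoderm and Cdh5 and Kdr of 4 endothelial markers were lower with both. The part of a changed share of neurons or progenitors in the values of the 10 genes was not tested.

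ES cell markers also differed between the EB arrays. All 7 were lower in EBs without ligand than in ES cells, at a median of -2.90. Relative to untreated EBs, 6 of 7 were past 1.5-fold higher with RA and 0 of 7 with bexarotene, with medians of 0.66 and 0.38. The log2 of their summed signal was 14.2 in ES cells, 12.0 in EBs without ligand, 12.7 after RA and 12.5 after bexarotene, and none of the 7 was below an array's lower quartile. Ina, Stmn2, Mapt, Tubb3 and Nefl had higher signals in ES cells than in untreated EBs, as these markers had. With RA, these genes differed from untreated EBs by 1.96 for Ina, 1.73 for Nefl, 1.59 for Tubb3, 0.29 for Mapt and 0.18 for Stmn2. Mapt and Stmn2 were not past the threshold. The part of ES cell RNA in the values of these genes was not tested.

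Genes of like pattern were sought among 4986 genes whose signal varied by over 1.5-fold over the 4 arrays, by root mean square distance of centred log2 signals, as a description over 4 arrays. Nearest to the mean profile of the 10 genes were Myt1 (0.0456), Nhlh2 (0.0499), Lrrn3 (0.0568), Mybpc1 (0.0874) and Hoxb4 (0.0924). Myt1 and Nhlh2 encode transcription factors of newly formed neurons, while Mybpc1 encodes a myosin-binding protein of skeletal muscle and Hoxb4 a homeobox factor of the hindbrain and cord. Myt1 differed from untreated EBs by 1.17 with RA and 0.77 with bexarotene. Nearest to Dcx were Pantr1 (0.170), Gpm6b (0.172), Neurod4 (0.201), Nhlh1 (0.259) and Sparcl1 (0.285). Their differences between bexarotene and RA ran from -0.40 to -0.72, and Pantr1, Gpm6b and Nhlh1 were past 1.5-fold.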

How the data were processed

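Total RNA was labelled with biotin and hybridised to Affymetrix whole-transcript arrays. The authors deposited a log2 signal for each probe set, made with Affymetrix Expression Console from all 4 arrays. The article names RMA and the submitters' processing notes GCRMA, which treat low signals differently. Scanner files were not used here, and the number of arrays limits the precision.

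By the platform annotation 21789 probe sets carry 1 symbol, 1621 carry several and 12146 carry none. Only the first kind was used. A gene was past 1.5-fold where 1 or more probe sets were and none was in the opposite direction. Its value is that of the probe set with the highest mean. The yardstick was taken in 20 bins of signal. Members, gene lists and the rule for named genes were chosen with earlier results of these data known. The rule names all members, list genes past 1.5-fold with a ligand, up to 4 others per list in list order, and the 5 genes nearest in pattern to the members' mean and to Dcx. Stmn1 lies outside the rule and was named after its values were seen.

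Promoter windows came from RefSeq, GRCm38.p6. Python 3.11.15, numpy 2.4.6, pandas 2.3.3 and statsmodels 0.14.6 were used. On simulated data only the 1.5-fold threshold for single probe sets was tried, not the calls per gene, the yardstick or the alternatives. The alternatives were a 2-fold threshold, quantile normalization, loess to the mean array (span 0.3), flooring signals at percentile 25, dropping probe sets below the median of both arrays, and the highest or the mean probe set of a gene.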

Additional observations from a re-analysis of the deposited data

Results flagged for a closer look

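For 3 of the 10 genes the difference from untreated EBs had opposite signs with the 2 ligands: Map2 (0.55 with RA, -0.076 with bexarotene), Dclk1 (0.21 and -0.043) and Stmn2 (0.18 and -0.18). None of these differences from untreated EBs is past 1.5-fold, and each rests on 1 array per condition. Between bexarotene and RA, Map2 differed by -0.63, past 1.5-fold, Dclk1 by -0.26 and Stmn2 by -0.36, and no test of these was possible. Over all genes 20.5% had opposite signs.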

How the results depend on the processing

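Of 78 recomputed counts and medians of the 10 genes under the 7 alternatives, 75 were classed as unchanged and none changed direction. A count could differ and still be classed so, as with RA after quantile normalization, with 7 genes higher in place of 6. Part of the tally was fixed in advance. The main values already use the probe set with the highest mean, so the medians under that alternative could not differ. Ina alone has more than 1 probe set, so the highest and the mean probe set could affect no other gene. At a 2-fold threshold 0 of the 10 genes were past it between the ligands, in place of 3, where 6 of all 19938 genes were higher and 0 lower, and Gap43 was past it with neither ligand. When probe sets below the median of both arrays were left out, the median difference of the genes that remained was -0.44 for untreated EBs against ES cells and 1.59 for RA against untreated EBs. This alternative keeps fewer genes, 8 and 9 of the 10. Single genes near the threshold crossed it under some settings: Map2 with RA and Tubb3 against ES cells (-0.60) after quantile normalization, Map2 after loess, Mapt with bexarotene against ES cells (-0.56) after loess, and Ina between the ligands by the highest or the mean probe set. No alternative stands in for replicate arrays. No paired analysis was possible because each condition has 1 array.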
